A study of Mus musculus with 2 samples.

Results

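The platelet-derived growth factor (PDGF) family was followed through 6 genes, taken by name from the 43346 genes of the tables: the ligand genes Pdgfa, Pdgfb, Pdgfc and Pdgfd and the receptor genes Pdgfra and Pdgfrb. All 6 were found, with 17 transcripts in the transcript tables. Intestines of 14.5-day B6NCrl embryos gave 2 total RNA-seq libraries, and the labels name no treatment or altered allele. The labels do not settle what 1 library holds, since they describe a single intestine of 1 pup and also give the sex as pooled. Donor record, pup number and dam number are identical for both, and the collection dates differ, day 17 of the month for replicate 1 and day 15 for replicate 2. Both libraries belong to 1 group, so there is no contrast between conditions and no test between groups. The whole wall of the gut was sequenced, which means that fewer cells of a type and less RNA per cell cannot be told apart.

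PDGFs are secreted dimers that bind receptor tyrosine kinases on neighbouring cells. The receptor alpha chain binds the A, B and C ligand chains, and the beta chain binds B and, after its activation, D. The C and D ligands are released in a latent form that proteases must cut. In the developing gut the epithelium is known as a source of Pdgfa and the mesenchyme beneath it for Pdgfra, where this signal serves the mesenchymal clusters that precede villi. Endothelial Pdgfb is known for attracting Pdgfrb-bearing pericytes to vessels.

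Because the results on the ligands turn on how their transcripts are spliced, the alternative coding segments are shown first. They come from GENCODE M21 transcripts on GRCm38, the assembly also called mm10. The first is exon 6 of Pdgfa up to its stop codon, at chr5:138978635-138978690 on the minus strand, which makes the long form of the A chain. This exon is known to encode a basic stretch that holds the protein at the cell surface and matrix. The second is the start of the last Pdgfa exon in the short form, at chr5:138977217-138977227 on the minus strand, where the reading frame ends when exon 6 is skipped. The next is an extra exon of Pdgfc at chr3:81131018-81131076 on the plus strand. Stop codons are in capitals in these 3.
Pdgfa exon 6: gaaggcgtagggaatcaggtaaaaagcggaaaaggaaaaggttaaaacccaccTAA
Pdgfa last exon: atgtgaggTGA
Pdgfc extra exon: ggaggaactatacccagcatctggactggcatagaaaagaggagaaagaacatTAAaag

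Exon 6 of Pdgfa has 69 bases, of which 53 are coding before the stop codon. The Pdgfc exon has 59 bases, and its stop codon follows after 53 of them, so that the annotated reading frame of a transcript with this exon covers 171 coding bases in place of 1035. In Pdgfd, exon 2 begins either at the capitals below or 18 bases further on, at chr9:6288472-6288501 on the plus strand. The 18 capital bases are in Pdgfd-202 only, and the 12 bases after them are shared with Pdgfd-201.
Pdgfd exon 2: AGAGCAATCACCTCACAGacttgtaccaga

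All 6 genes were detected, that is at 1 TPM or more in both libraries, a level that 61.3% of protein-coding genes and 34.2% of all genes reached. TPM is a transcript level that corrects counts for transcript length and library total, so levels of different genes can be compared. Values are means ± SD (n = 2), and the deposited interval of each TPM is that of 1 library. For a gene with 1 transcript the interval is about as wide as counting error gives. It can be wider where reads are divided among transcripts, as for Pdgfa, and it is centred on a posterior mean that can lie below the TPM. From highest to lowest the order was Pdgfa, Pdgfra, Pdgfrb, Pdgfc, Pdgfd and Pdgfb.

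Pdgfa (ENSMUSG00000025856.11, chromosome 5, 138976014 to 138997370) was the most abundant ligand gene. It stood at 60.8 TPM in replicate 1 (interval 56.3 to 63.9) and 53.4 TPM in replicate 2 (interval 49.5 to 56.5), from 2109 and 1888 estimated counts. The values were close, with intervals that just overlapped. Its mean of 57.1 ± 5.23 TPM lay above that of 87.6% of protein-coding genes.

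Pdgfc (ENSMUSG00000028019.5, chromosome 3, 81036416 to 81214040), whose product carries a CUB domain that proteases remove, came next among the ligands. It had 20.5 TPM in replicate 1 (18.9 to 21.1) and 17.9 TPM in replicate 2 (16.5 to 18.5), a mean of 19.2 ± 1.80. Its intervals did not overlap between the libraries, with replicate 1 higher.

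Pdgfd (ENSMUSG00000032006.10, chromosome 9, 6168584 to 6378850), the second CUB domain ligand gene, was low. It reached 6.85 TPM in replicate 1 (6.07 to 7.42) and 6.0 TPM in replicate 2 (5.22 to 6.60), from 438 and 358 counts. Pdgfb (ENSMUSG00000000489.6, chromosome 15, 79995874 to 80014977), the ligand gene of the vessel wall, had 5.04 TPM in replicate 1 (4.40 to 5.46) and 5.86 TPM in replicate 2 (5.18 to 6.31), from 330 and 388 counts. The means were 6.43 ± 0.601 TPM for Pdgfd and 5.45 ± 0.58 TPM for Pdgfb, above 53.1% and 51.2% of protein-coding genes. Pdgfb was the only member with the higher TPM in replicate 2.

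Pdgfra (ENSMUSG00000029231.11, chromosome 5, 75152292 to 75198215), the alpha receptor gene and a general marker of mesenchyme, had the most counts of the family. Its 7046 and 5798 counts gave 47.0 TPM in replicate 1 (44.8 to 46.9) and 38.2 TPM in replicate 2 (36.4 to 38.3). The intervals were well apart, with replicate 1 higher, and the mean was 42.6 ± 6.19 TPM. Pdgfrb (ENSMUSG00000024620.7, chromosome 18, 61045150 to 61085061), the beta receptor gene of pericytes and other mural cells, had 31.7 TPM in replicate 1 (29.98 to 31.9) and 31.5 TPM in replicate 2 (29.7 to 31.7). Its mean of 31.6 ± 0.17 TPM had the smallest SD of the 6.

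**Figure D1:**
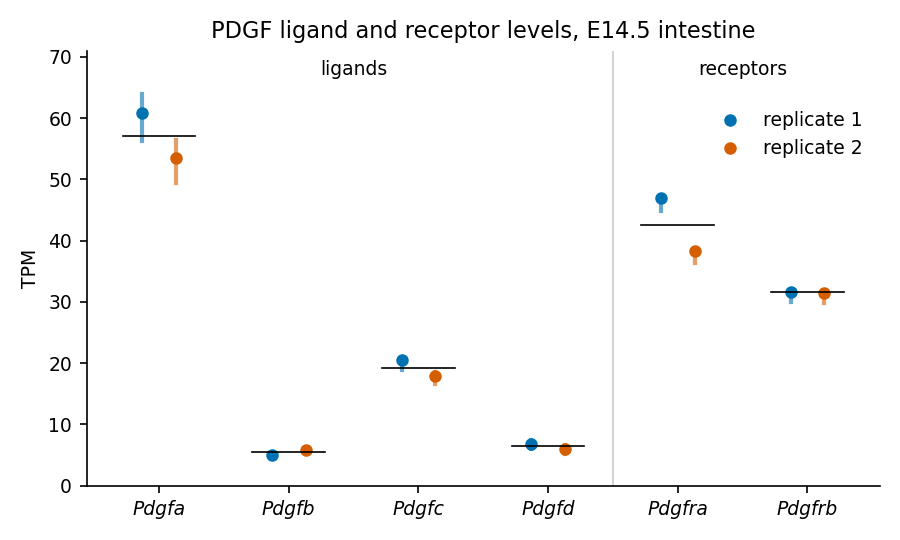
TPM of the 4 ligand and 2 receptor genes. Points are libraries, coloured lines the deposited interval of each library and black lines the mean of the 2 libraries. Pdgfa lies highest and Pdgfb and Pdgfd lowest, and the libraries lie furthest apart for Pdgfra and closest for Pdgfrb.

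Neighbours in the order were taken to differ where their TPM values did not overlap over the libraries and their intervals lay apart within each library. An exact permutation test of 2 values against 2 cannot give a two-sided p below 0.333, so none was run. Of the 5 neighbouring pairs 4 differed. Pdgfa exceeded Pdgfra 1.29-fold in replicate 1 and 1.40-fold in replicate 2. Pdgfra exceeded Pdgfrb 1.48-fold and 1.22-fold, Pdgfrb exceeded Pdgfc 1.55-fold and 1.76-fold, and Pdgfc exceeded Pdgfd 2.99-fold in each. Pdgfd and Pdgfb were not distinguished, with ratios of 1.36 in replicate 1 and 1.02 in replicate 2, where their intervals overlapped. Counts without regard to length put Pdgfra above Pdgfa, since Pdgfra transcripts averaged 6554 bases in replicate 1 and those of Pdgfa 1592 bases.

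The ligand genes summed to 93.2 TPM in replicate 1 and 83.2 TPM in replicate 2, and the receptor genes to 78.7 and 69.7 TPM. The ratio of ligand to receptor TPM was 1.18 and 1.19. The side of 1 on which it fell depended on the transcripts counted. Over transcripts annotated as protein-coding only, a sum added after the values were seen, the ligand genes had 68.4 and 64.2 TPM and the ratio was 0.869 and 0.921. Pdgfa supplied 65.3% and 64.2% of ligand TPM, Pdgfc 22.0% and 21.5%, Pdgfd 7.35% and 7.21%, and Pdgfb 5.41% and 7.04%. Ligand genes whose chains bind the alpha receptor only, Pdgfa and Pdgfc, thus held 87.2% and 85.7% of the sum. Over protein-coding transcripts only, Pdgfa supplied 77.9% and 74.8% and Pdgfc 4.72% and 6.74%, because most Pdgfc TPM was assigned to a transcript without the full coding sequence. Pdgfra held 59.7% and 54.9% of receptor TPM.

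The tables list Pdgfa as 7 transcripts, 4 of them coding. Pdgfa-202, a short form, had the largest share of the gene's TPM, 41.7% in replicate 1 and 40.3% in replicate 2. The long form with exon 6, Pdgfa-201, took 21.8% and 26.6%, a mean of 24.2 ± 3.42%, from 444 and 482 counts with posterior SDs of 43.1 and 38.2. Pdgfa-204, a short form with another first exon, took 22.7% and 21.9%, and Pdgfa-203 1.38% and 1.06%. The coding short forms together outnumbered the long form 3.02-fold in replicate 1 and 2.38-fold in replicate 2. Among coding transcripts only, a measure chosen after the values were seen, the long form had 24.9% and 29.6%.

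In TPM the long form was at 13.3 in replicate 1 (interval 10.0 to 15.5) and 14.2 in replicate 2 (11.3 to 16.3). The short form Pdgfa-202 was at 25.4 TPM (22.4 to 27.2) and 21.6 TPM (18.9 to 23.2). For each form the intervals of the libraries overlapped, so no difference between the libraries was resolved. The posterior SDs of the long form's counts are above the counting error of such counts, so the division of reads among transcripts adds to the width. Exon 6 is not the only place where these transcripts differ. Pdgfa-202 also runs 502 bases further at its 3' end and 84 bases further at its 5' end, and how much of the estimated share rests on those ends was not tested.

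Transcripts of Pdgfa also differ in where they start. Pdgfa-204 begins 1050 bases upstream of Pdgfa-202, and the noncoding Pdgfa-207 begins 756 bases downstream of it and took 12.4% and 9.03%. The first exon of Pdgfa-204 lies over exons of the antisense gene 6330403L08Rik for all of its 354 bases. That gene was at 1.21 and 1.25 TPM, and the use of strand in counting is not stated in the sources used here. Without strand, reads from the antisense gene and from this exon cannot be told apart.

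**Figure D2:**
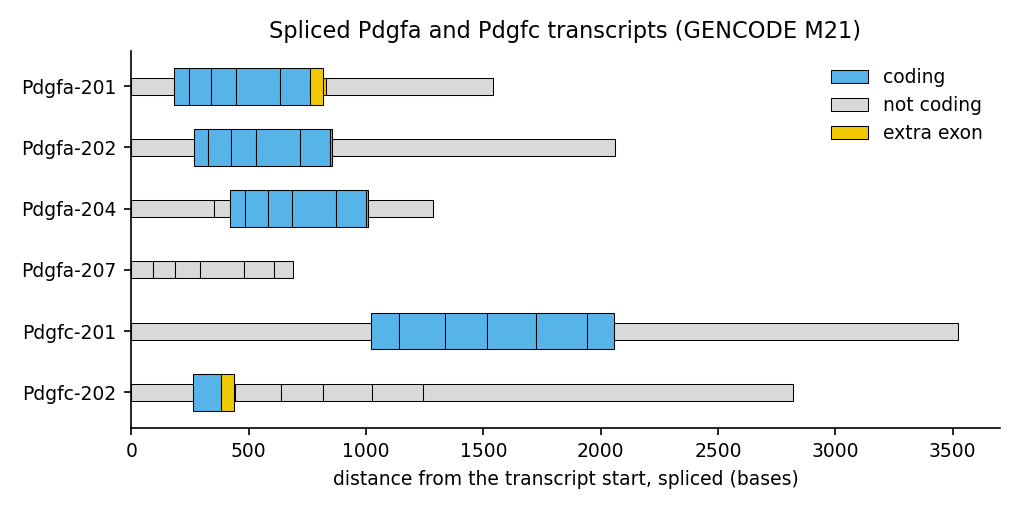
Spliced maps of 4 Pdgfa and 2 Pdgfc transcripts, with distance from the transcript start in bases on the horizontal axis. Tall blue boxes are coding, thin grey boxes are not, and yellow marks the exon that distinguishes Pdgfa-201 or Pdgfc-202. In Pdgfc-202 the coding part ends within the yellow exon.

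RefSeq promoter windows, from 250 bases before to 50 bases after a start on GRCm38.p6, were used for 4 of the 6 genes. Those of Pdgfa are shown because they mark 2 of its starts. The upstream window, chr5:138994895-138995194 on the minus strand, holds a RefSeq start 9 bases from that of the long form Pdgfa-201. The start of the short form Pdgfa-202 lies in this window too, 84 bases from that of Pdgfa-201. The downstream one, chr5:138994232-138994531, holds the start of Pdgfa-207. Capitals mark GGGCGG, the core of a GC box, on either strand.
Pdgfa upstream start: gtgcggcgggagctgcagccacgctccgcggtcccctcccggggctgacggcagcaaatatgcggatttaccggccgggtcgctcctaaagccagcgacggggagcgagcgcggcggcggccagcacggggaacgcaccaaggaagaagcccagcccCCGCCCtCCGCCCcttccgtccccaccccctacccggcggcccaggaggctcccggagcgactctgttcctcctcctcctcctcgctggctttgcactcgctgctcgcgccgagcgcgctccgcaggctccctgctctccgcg
Pdgfa downstream start: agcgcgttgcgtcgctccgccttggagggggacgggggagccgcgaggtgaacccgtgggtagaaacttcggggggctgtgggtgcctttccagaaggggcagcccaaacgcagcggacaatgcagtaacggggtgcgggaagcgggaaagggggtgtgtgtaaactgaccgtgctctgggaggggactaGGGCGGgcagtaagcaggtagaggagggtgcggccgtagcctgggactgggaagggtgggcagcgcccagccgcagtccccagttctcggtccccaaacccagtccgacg

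The upstream Pdgfa window held GGGCGG at 2 places and the downstream window at 1, while 35.7% of 32851 windows held it at least once. The windows of Pdgfc, Pdgfd and Pdgfra held none. No window of Pdgfb or Pdgfrb was used, so the window results do not cover those genes. TATAAA, searched on both strands, was in the Pdgfd window only, among the member windows used, and in 13.6% of all windows. CCAAT was in none of the member windows used and in 37.4% of all windows. GC content was 73.3% and 67% for Pdgfa, 56.7% for Pdgfd, 55% for Pdgfc and 51.0% for Pdgfra, against a median of 52.7%. These are matches of letters and show no binding.

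Most Pdgfc transcript was assigned to a form without the full coding sequence. Pdgfc-202, which carries the extra exon with the early stop codon and is annotated as a target of nonsense-mediated decay (NMD, the breakdown of messages with early stops), took 84.0% of the gene's TPM in replicate 1 and 74.6% in replicate 2. Its counts were 1084 and 854, with posterior SDs of 30.1 and 34.0. The full coding transcript Pdgfc-201 took 15.8% and 24.2%, at 3.23 TPM (2.44 to 4.06) and 4.33 TPM (3.34 to 5.16). On its own, at 3.78 ± 0.778 TPM, it lay below the level of Pdgfd and of Pdgfb. Over protein-coding genes with an NMD transcript and a mean of at least 5 TPM, a comparison chosen after the values were seen, 3.78% of 2193 had over 50% of TPM in such transcripts in both libraries. A share at least as large as the lower one of Pdgfc was found in 20 of them, or 0.912%, Pdgfc included.

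The Pdgfc transcripts also differ in their first exon, which is 756 bases longer in Pdgfc-201, all of it upstream of the coding start. A lack of reads over that stretch would lower the estimated share of Pdgfc-201 whether or not the extra exon was included, and this was not tested. The antisense gene Gm16000, which overlaps 147 bases of the first exon, had 3.29 and 0 counts. Pdgfc-202 was at 17.2 TPM in replicate 1 (15.4 to 18.04) and 13.4 TPM in replicate 2 (11.7 to 14.4), with intervals apart, while the intervals of Pdgfc-201 overlapped.

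Pdgfd had 2 transcripts, both coding, whose shares differed more between the libraries than those of any other member. Pdgfd-201, without the 18 bases, took 84.1% in replicate 1 and 67.1% in replicate 2, and Pdgfd-202 took 15.9% and 32.9%, from 43.0 and 78.7 counts. The TPM of Pdgfd-201 was 5.76 (4.99 to 6.24) and 4.03 (3.36 to 4.55), with intervals apart. The intervals of Pdgfd-202 overlapped. The difference of 17.0 points compares with a median of 2.97 points over the main transcripts of 7973 genes, 12.4% of which differed by at least 10 points. These were protein-coding genes with 2 or more transcripts and a mean of at least 5 TPM. They were not matched for level to Pdgfd, which lay near that minimum at 6.43 TPM. The last exon of Pdgfd-201 is 1326 bases longer in GENCODE M21, so this share too rests on more than the 18 bases.

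The receptors were close to single-transcript genes. Pdgfra-201 took 95.98% and 92.99% of Pdgfra, and Pdgfra-202, which starts 3593 bases further downstream and has the same coding length of 3267 bases, took the rest. The posterior SD of the Pdgfra-202 count was 157 for 284 counts in replicate 1 and 161 for 407 in replicate 2. Pdgfrb-201 took 99.1% and 100% of Pdgfrb. Pdgfb was listed with 1 transcript.

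**Figure D3:**
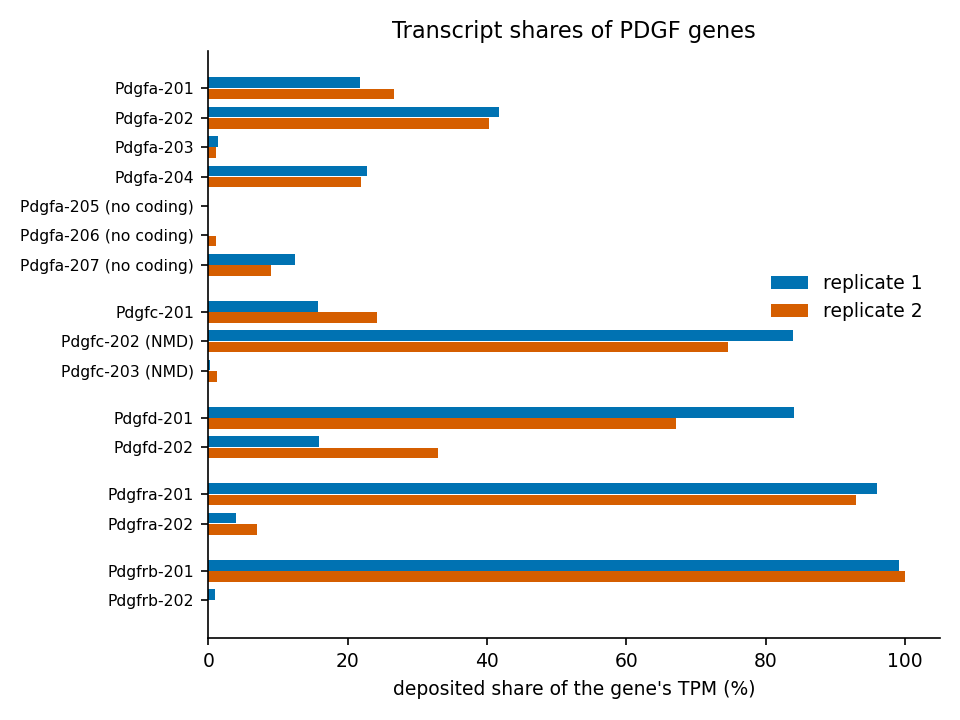
Deposited share of each transcript in its gene's TPM, in percent, with 1 bar per library. NMD marks transcripts annotated for nonsense-mediated decay. The NMD transcript Pdgfc-202 exceeds the coding Pdgfc-201 in both libraries, and the long form Pdgfa-201 stays below the short form Pdgfa-202.

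None of the 6 genes was called different between the libraries, that is by at least 1 in log2(TPM + 1) with intervals apart at a mean of at least 5 TPM, as 0.495% of 11324 genes were in either direction and 0.0442% with the lower value in replicate 2. The ratio of replicate 2 to replicate 1 was 0.814 for Pdgfra, 0.876 for Pdgfc and Pdgfd, 0.878 for Pdgfa, 0.992 for Pdgfrb and 1.16 for Pdgfb. Lower TPM in replicate 2, seen for 5 of the 6, was also seen for 62.7% of genes, and the median gene differed by -0.05 in log2. Intervals that did not overlap, as for Pdgfra and Pdgfc, occurred for 25.2% of genes. For Pdgfra, 10.00% of genes with a mean of at least 5 TPM differed more, and for Pdgfrb 94.7%. A common dispersion fitted over 17119 genes gives a log2 difference between libraries an SD of 0.231. The largest member difference, -0.30 for Pdgfra, was 1.29 of these SDs. Genes under 5 TPM entered that fit, so this SD need not hold for genes at the level of Pdgfra. Under scaling by TMM, DESeq2, spike-ins or protein-coding TPM, Pdgfa, Pdgfc, Pdgfd and Pdgfra stayed lower and Pdgfb higher in replicate 2. Pdgfrb changed sign, from -0.10 with spike-ins to 0.04 with TMM.

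**Figure D4:**
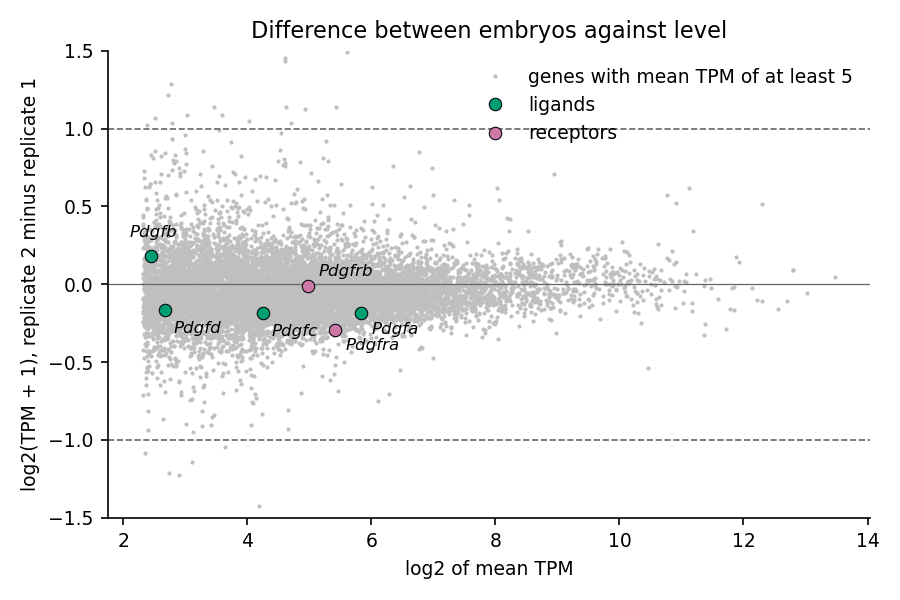
Difference in log2(TPM + 1) between the libraries against log2 of mean TPM for genes with a mean of at least 5 TPM, with dashed lines at a difference of 1. The word embryos in the title stands for the 2 libraries, since the labels do not settle what each holds. The 6 members lie within the cloud of the other genes. A total of 59 genes lie beyond the vertical limits of 1.5 and are not drawn.

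The library of replicate 2 stood apart in pancreatic transcripts, as the 11 pancreas markers summed to 8.95 TPM in replicate 1 and 1087 TPM in replicate 2, and 9 of the 11 were called. Pnliprp1 had 1.67 and 355 TPM, and Ctrb1 was listed at 0 and had 300.1 TPM. The markers of epithelium summed to 1644 and 1848 TPM, with Lgals4 and Epcam highest and Krt20 lowest, and 9 of 9 were detected, as the tissue label requires. Markers of subepithelial mesenchyme, led by Foxf1 and Nkx2-3, summed to 344 and 309 TPM, a ratio of 0.897 beside that of 0.814 for Pdgfra. Of these 10 markers 6 were lower in replicate 2, Foxf1 among them, and 4 were higher, Nkx2-3 among them, and the median of the list was 18.02 and 19.2 TPM. Markers of pericytes summed to 208 and 220 TPM, led by Anpep and Kcnj8, with 9 of 10 detected and Higd1b at 0 and 0.11 TPM. Anpep alone gave 50.8 and 54.9 TPM of these sums, and Rgs5 16.3 and 16.4. Levels of the whole gut wall do not show that the Anpep RNA came from pericytes. Endothelial markers, led by Egfl7 and Esam, summed to 271 and 264 TPM, and all 8 were detected. Megakaryocyte and platelet markers summed to 44.0 and 56.4 TPM, with Pf4 at 34.7 and 43.3 TPM and 4 of 7 detected, beside 5.04 and 5.86 TPM for Pdgfb. Fibroblast markers summed to 3268 and 3107 TPM, smooth muscle markers to 3446 and 3220, neural and glial markers to 341 and 314, macrophage markers to 158 and 157, and liver markers to 106 and 110. The part of any of these in the member values was not tested.

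The genes of the wider pathway were taken from 5 lists, of which 61 genes were in the tables and 58 were detected, where 61.3% of protein-coding genes were. None of the 61 was called between the libraries, as 0.495% of genes with a mean of at least 5 TPM were. In replicate 2, 39 were lower and 22 higher, where 62.7% of such genes were lower. The proteases that cut PDGF precursors or the latent C and D ligands were detected for 6 of 7, with a median of 10.5 ± 0.332 TPM against 4.895 ± 0.0354 over all protein-coding genes. In this and the later list medians, the median is over the genes' mean TPM, and the SD is between the 2 library medians. St14, an epithelial membrane protease known to cut the D ligand, was at 44.7 ± 2.88 TPM. Plat, the tissue plasminogen activator that activates the C ligand, was at 33.2 TPM in replicate 1 and 26.9 TPM in replicate 2. Plau, the urokinase that activates the D ligand, was the lowest at 0.90 and 0.99 TPM.

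Proteins that bind the ligands or help the receptors were detected for 5 of 6 genes. Sparc, a matrix protein that binds the B chain, was at 1111 ± 41.4 TPM, and Lrp1, a co-receptor of the beta receptor, at 73.6 ± 2.86. A2m, a plasma protein that traps PDGF, was at 0.56 and 0.61 TPM.

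Adaptors and enzymes that dock on the activated receptors were detected for 20 of 21 genes, at a median of 28.2 ± 0.0495 TPM. The adaptor genes Crk and Shc1 led at 81.1 ± 3.30 and 53.4 ± 3.67 TPM, and the kinase subunit gene Pik3cb was lowest at 0.75 and 0.68. All 14 genes listed under receptor attenuation were detected, with the scaffold gene Slc9a3r1 at 126 ± 3.49 TPM and the phosphatase gene Ptpn2 at 63.6 ± 1.10. Whether any of them weakened PDGF signals here was not tested. Pdgfrl, a receptor-like gene, was the lowest of these at 3.15 and 4.99 TPM. All 13 effectors of the Ras and Akt branches were detected, at a median of 66.3 ± 1.68 TPM. Among them the kinase gene Map2k2 stood at 139.9 ± 5.46 TPM.

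**Figure D5:**
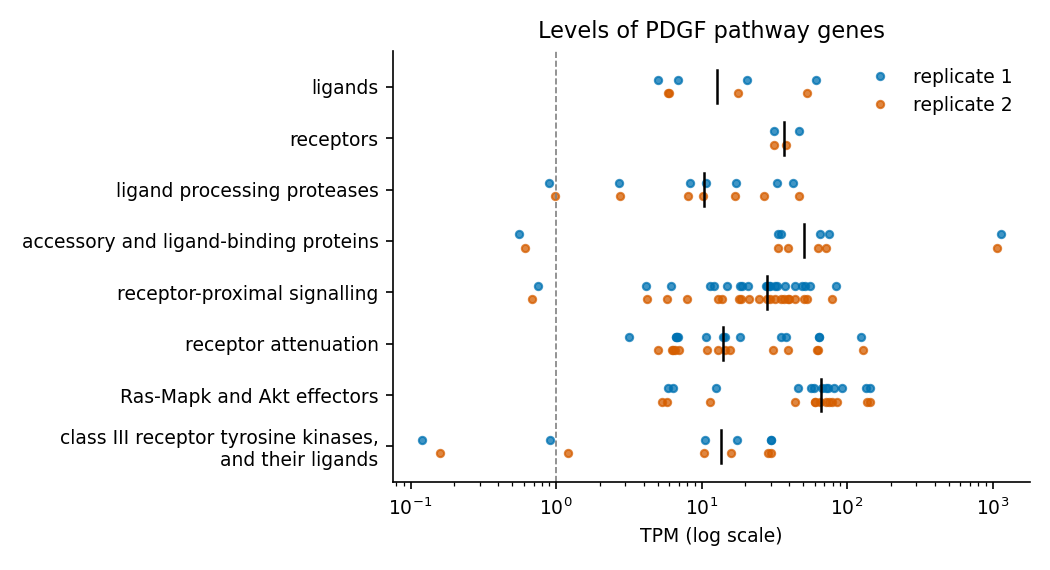
TPM of pathway genes by list on a log axis, with 1 point per gene and library, a black line at the list median and a dashed line at the detection level of 1 TPM. Both receptors lie above the median of the class III list, which holds other receptors and their ligands. In each of 3 pathway lists 1 gene lies below the dashed line in both libraries, as does Flt3 in the class III list.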

How the data were processed

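Total RNA over 200 nucleotides was extracted and 10 ng used per library, per the labels. The deposited notes name mm10 as the assembly and GENCODE M4 as the annotation, with separate tables for each library. The quantification tool is not given in the sources used here, nor is its strand setting. Estimated counts (expected counts), TPM and FPKM per gene and transcript, and the percent share of each transcript in its gene, were deposited by the authors. Interval bounds and the posterior SD of counts, deposited beside them, were used as scores. The header does not state the interval's level. For 2694 single-transcript genes the half-width was 1.96 Poisson standard errors at the median, as a 95% interval has. Genes held 32938592 and 32371363 estimated counts, and spike-ins 9.77% and 10.4% of TPM.

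Identifiers were matched to GENCODE M21 on GRCm38 (42462 of 43346). Transcript names, biotypes and structures are of M21, and 4 member transcripts differ in length from the tables. No test was run, since there is 1 group. P-values are therefore absent, and SDs measure only the spread between 2 libraries, which may be technical. A floor of 3 counts was 0.0200 to 0.0865 TPM for the members in replicate 1, and covers counting error only. Intervals of genes and transcripts that share reads can be wider than counting error. Dispersion and TMM factors came from edgeR 4.0.16 on rounded counts of 17119 genes (common dispersion 0.0128), and size factors from DESeq2 1.42.0. Chi-square over degrees of freedom was 15.3 between the libraries' gene counts, so they are not 1 library deposited under both labels. The call rule was tested on simulated counts.

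Members and gene lists were chosen with earlier results of these data known. Named genes are the members, their transcripts of at least 10% share, overlapping genes, and the 2 highest and the lowest gene of each pathway list, some of which are not reported here. Marker lists are given mainly as sums. Flt3l was not used here.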

Additional observations from a re-analysis of the deposited data

How the results depend on the processing

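Of 154 recomputed values for 29 results, 138 kept their direction, their side of the threshold or their value within the stated spread. Many of these could not come out otherwise. With 2 libraries, a level, ratio or share without 1 of them always lies within the SD of the mean. Ratios within a library also cannot change when that library is rescaled. The number kept is therefore no measure of robustness. TPM rescaled over nuclear protein-coding genes raised the members to 74.8 (Pdgfa), 55.8 (Pdgfra), 41.4 (Pdgfrb), 25.1 (Pdgfc), 8.41 (Pdgfd) and 7.14 TPM (Pdgfb), the ligand sum to 115 and the receptor sum to 97.2, by construction and with the order kept. Posterior mean TPM gave 30.8 for Pdgfrb, a ligand to receptor ratio of 1.2 and a Pdgfrb-201 share of 98.7%. Over protein-coding transcripts only, added after seeing the data, the ligand sum was 66.3 TPM and the ligand to receptor ratio 0.895. Without length, the log2 ratio of Pdgfa to Pdgfra reversed to -1.68, from 0.42. Leaving out a replicate in turn gave log2 ratios of Pdgfd to Pdgfb from 0.034 to 0.443, and these genes were distinguished without replicate 2 only. The members called between libraries stayed at 0 under all 6 alternatives, while without a filter on low values 116 genes of the whole table were called in place of 56. No paired analysis was possible because there is 1 group. Transcript shares are limited by counts, as Pdgfd-202 rested on 43.0 and 78.7, and by the division of reads among transcripts, as the Pdgfra-202 counts of 284 and 407 had posterior SDs of 157 and 161.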

Other observations

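The PDGF receptors belong to the class III receptor tyrosine kinases, and some of their relatives lie near them in the genome. Kit, the receptor gene of pacemaker cells of the gut and of mast cells, starts 376700 bases beyond Pdgfra and was at 30.2 and 28.8 TPM. Kdr, an endothelial receptor gene outside the class III list used here, lies 734611 bases beyond Pdgfra and was at 25.3 and 23.4 TPM. Csf1r, the macrophage receptor gene, lies 15536 bases beyond Pdgfrb and was at 17.4 and 16.0 TPM. Kit was not distinguished from Pdgfrb, since their intervals overlapped in both libraries, and Flt3, at 0.12 and 0.16 TPM, was under the detection level. Among the ligands of this class, Kitl was at 29.97 ± 0.219 TPM and Csf1 at 10.5 ± 0.156, while Il34 had 0.91 and 1.2 TPM.

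The epithelial factor gene Cdx1, named here after its values were seen, lies 8950 bases from Pdgfrb on the opposite strand. Cdx1 had 31.0 and 40.2 TPM in the libraries in which Pdgfrb had 31.7 and 31.5. Of 8 annotated genes that overlap a member, 5 were in the tables, and 6330403L08Rik alone reached 1 TPM. Gm41361 (over Pdgfb) and Gm42802 and Gm42803 (over Pdgfra) were not analysed here. Ddi1, within Pdgfd, had 0.12 and 0.21 TPM, and the microRNA genes Mir7213 and Mir7025 were listed at 0. Only RNA over 200 nucleotides was used, so these values do not show that the microRNAs were absent.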
